A study of Mus musculus with 6 samples.

Results

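Inflammasome sensors and effectors were examined as a set of 10 genes among the 55335 genes of the count table, in RNA-seq of bone marrow-derived macrophages (BMDMs) collected 1 h after LPS or PBS. The genes were chosen by name: Nlrp3, Nlrp1b, Nlrc4, Naip5, Naip2 and Aim2 as sensors, Pycard as adaptor, Casp1 and Casp4 as caspases, and Gsdmd as the pore-forming effector. Each name was matched to 1 row through GENCODE M21, a rule that uses no measured value. All 10 had enough counts to be tested, together with 15677 other genes.

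Inflammasomes are cytosolic protein assemblies that form when a sensor meets a microbial product or a sign of cell damage. The sensor recruits the adaptor ASC, encoded by Pycard, which gathers and activates caspase-1, and this protease matures IL-1β and IL-18 and cuts gasdermin D into a fragment that perforates the plasma membrane. In macrophages the response is classically described in steps: a priming signal such as LPS raises the transcripts of some components, and a separate signal then triggers assembly, which RNA levels do not show.

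The cells were grown for 6 d from femur and tibia marrow of mice labelled with the genotype C57BL/6, in medium conditioned by L929 cells, which supply the macrophage growth factor M-CSF. LPS, a component of the outer membrane of Gram-negative bacteria, was given to the cells of 3 libraries (LPS group), and PBS, a buffer, to those of the other 3 (control group). No other treatment or allele was labelled in either group, and the LPS dose of these cultures was not given in the sources used here. Libraries were prepared from total RNA, and the labels give each group the batch numbers 1, 2 and 3, without saying whether a number stands for separate mice or cultures. The study's methods state in general that experiments were repeated independently, without naming these libraries, so p-values measure the spread between these libraries, which may be technical.

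The 6 libraries held 37787611 to 41516330 counts assigned to genes. Levels are given as CPM, a gene's counts relative to the total of its library after scaling by the library's TMM factor. That factor was 1.15 in every control library and 0.864 to 0.872 in LPS libraries. As a check of the labels, Tnf rose by 6.83 on the log2 scale (SE 0.05, adjusted p = 4.99e-24). The 6 macrophage markers summed to 6786 to 7107 CPM in control and 8143 to 8230 CPM in LPS libraries, and 4 of them had a higher and 1 a lower level at an adjusted p under 0.05. Neutrophil (7.30 to 8.65 against 10.5 to 11.2 CPM), lymphocyte (1.44 to 1.78 against 2.14 to 2.44 CPM), dendritic cell (4.07 to 5.01 against 11.1 to 11.7 CPM) and stromal markers (7.80 to 8.99 against 10.5 to 13.1 CPM) summed to far lower levels, each higher in LPS libraries, and no marker was at 0 in every library. Among the dendritic cell markers, 4 of 5 passed the criteria for a rise, beside 10.5% of all tested genes. By adjusted p alone, 32.9% of all tested genes were higher and 34.9% lower. These levels are TMM-scaled. The 4 macrophage markers that were higher differed by 0.20 to 0.35 on the log2 scale. With library size alone the median of all tested genes moved by more, from -0.01 to -0.42. The direction of the macrophage sum thus rests on the scaling, and the other sums were not compared under library size alone. The part of other cell types in the results below was not tested, and in bulk RNA fewer cells of a type and less RNA per cell cannot be told apart.

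Where the RefSeq promoter table had an entry, the 300 bases around each start (250 before and 50 after it) were read on GRCm38.p6. It had 12 windows for 9 of the 10 genes and none for Gsdmd. The windows below are shown for the 2 genes that rose past the criteria (Nlrp3 and Casp4), for Casp1, which lies directly beside Casp4 and did not pass, and for Naip5, which shares a sequence feature with the first pair but not their change. Each reads 5′ to 3′ on the gene's own strand, and capitals mark letters that match the NF-kB consensus on either strand.
Nlrp3, chr11:59541319-59541618, plus strand: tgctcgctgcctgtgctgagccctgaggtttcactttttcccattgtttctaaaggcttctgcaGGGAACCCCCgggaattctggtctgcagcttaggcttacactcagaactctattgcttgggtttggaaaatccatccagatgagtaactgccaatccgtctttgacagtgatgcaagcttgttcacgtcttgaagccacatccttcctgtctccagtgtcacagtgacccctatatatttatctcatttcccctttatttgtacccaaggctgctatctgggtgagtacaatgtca
Casp4, chr9:5308599-5308898, plus strand: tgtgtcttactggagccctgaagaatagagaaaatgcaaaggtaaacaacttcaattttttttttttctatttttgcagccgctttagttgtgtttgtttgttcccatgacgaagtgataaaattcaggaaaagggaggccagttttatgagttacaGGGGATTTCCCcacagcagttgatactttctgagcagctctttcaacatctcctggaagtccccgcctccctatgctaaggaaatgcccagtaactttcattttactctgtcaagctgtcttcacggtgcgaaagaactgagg
Casp1, chr9:5298267-5298566, plus strand: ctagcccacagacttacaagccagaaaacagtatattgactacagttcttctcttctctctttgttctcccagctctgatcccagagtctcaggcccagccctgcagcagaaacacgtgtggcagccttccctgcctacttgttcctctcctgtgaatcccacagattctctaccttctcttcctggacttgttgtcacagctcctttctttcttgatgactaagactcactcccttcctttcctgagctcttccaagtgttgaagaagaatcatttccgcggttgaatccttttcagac
Naip5, chr13:100247287-100247586, minus strand: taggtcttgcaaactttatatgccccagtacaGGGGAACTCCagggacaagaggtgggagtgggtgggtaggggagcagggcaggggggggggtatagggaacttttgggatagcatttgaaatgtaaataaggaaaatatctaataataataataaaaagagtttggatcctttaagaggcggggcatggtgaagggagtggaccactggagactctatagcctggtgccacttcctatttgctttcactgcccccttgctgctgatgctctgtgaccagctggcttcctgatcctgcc
The NF-kB consensus is the sequence class bound by NF-kB, the transcription factor family that LPS activates through its Toll-like receptor. It matched 4 of the 12 windows, in 3 genes, whereas 4.51% of all 32851 windows in the table held a match. The 2 Casp4 windows overlap and hold the same stretch, so the 4 windows count it more than once. In the Nlrp3 window the matching stretch GGGAACCCCC began 186 bases before the start, and the other Nlrp3 window had no match. In Casp4, both windows (the second at chr9:5308610-5308909) held the stretch GGGGATTTCCC, 93 or 104 bases before their starts. In Naip5 the stretch GGGGAACTCC began 218 bases before a RefSeq start that lies upstream of the GENCODE gene. The Casp1 window held no such match.
The PU.1 core GAGGAA, searched on both strands, was present in 5 of the 12 windows, 1 each for Nlrp3, Nlrp1b, Aim2, Pycard and Casp1, and in 28.3% of all windows. The AP-1 motif TGANTCA and the ISRE core (GAAA, any 2 bases, GAAA) were in 0 of the 12 windows, against 7.81% and 3.44% of all windows, and no NF-kB match shared its window with any of these motifs. A match is a run of letters, and binding was not measured.

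LPS raised the transcripts of 2 components past the criteria (adjusted p under 0.05, fold change beyond 1 on the log2 scale): the sensor Nlrp3, 33.0-fold, and the caspase Casp4, 4.38-fold. None of the 10 fell past them by edgeR's quasi-likelihood test, DESeq2 or limma voom. In edgeR's test 8 of the 10 had an unadjusted p under 0.05 in either direction. At least 67.7% of all tested genes did so too, as that share was under 0.05 after adjustment. Across all 15687 tested genes, 10.5% passed for a rise, 10.4% for a fall and 20.9% for either, so 2 of 10 genes past the criteria is a share near that background and no result about the set as a whole. By adjusted p alone, 3 of the 10 genes were higher (Nlrp3, Casp4 and Nlrc4) and 4 were lower (Pycard, Nlrp1b, Aim2 and Gsdmd), beside 32.9% of all genes higher, 34.9% lower and 67.7% either way. The other 3, Naip2, Naip5 and Casp1, did not pass. The median log2 fold change was -0.06 for the 10 genes and -0.01 for all tested genes, and single genes ran from -0.40 (Pycard) to 5.04 (Nlrp3). In 7 of the 10 genes the CPM of the groups did not overlap, as in 70.5% of all tested genes.

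**Figure D1:**
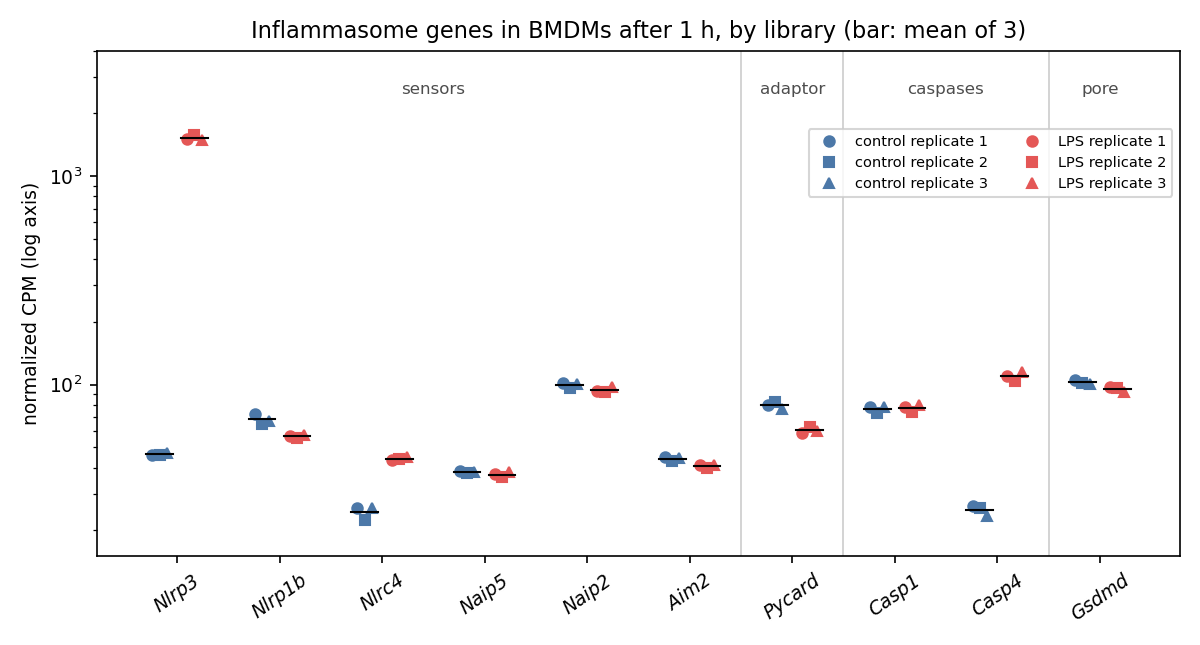
Normalized CPM (log axis) of the 10 inflammasome genes in each of the 3 control (blue) and 3 LPS (red) libraries, marker shape giving the replicate number and the bar the mean. Nlrp3 moved from a mean of 46.4 to 1531 CPM and Casp4 from 25.1 to 110.1 CPM, Nlrc4 moved from 24.6 to 44.0 CPM, and the other 7 genes stayed within 1.32-fold.

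Among the sensors, Nlrp3 responds to potassium efflux and other signs of membrane or organelle damage and needs transcriptional priming in macrophages. It stood at 46.2, 46.0 and 47.0 CPM in control replicates 1 to 3 and at 1517, 1579 and 1496 CPM in the LPS libraries. Every LPS library lay far above every control library, and the spread within each group was small beside the gap. The log2 fold change was 5.04 (SE 0.04, 95% confidence interval 4.96 to 5.13, adjusted p = 8.61e-24), at percentile 98.8 of all tested genes. Within the same-numbered pairs of libraries it was 5.04, 5.10 and 4.99. The gene (ENSMUSG00000032691) lies at chr11:59541568-59566956 of GRCm38 on the plus strand. Its nearest protein-coding neighbour at lower coordinates, Zkscan17, lies 14816 bp away on the opposite strand and rose by 0.59 on the log2 scale (SE 0.05, adjusted p = 4.05e-09).

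Nlrc4 and the NAIP genes form a second branch, in which NAIP proteins bind bacterial flagellin (Naip5) or the inner rod of type III secretion systems (Naip2) and then engage Nlrc4 as the oligomerizing partner. Nlrc4 stood at 25.5, 22.5 and 25.7 CPM in control and at 43.3, 44.0 and 44.8 CPM in LPS libraries. The groups did not overlap. The difference was 0.84 on the log2 scale (SE 0.05, adjusted p = 8.46e-11), a 1.79-fold rise that stayed under the fold criterion. Nlrc4 (ENSMUSG00000039193, chr17:74425438-74459142, minus strand) lies between Slc30a6, 1216 bp away, and Yipf4, 30350 bp away, both on the opposite strand. Slc30a6 rose by 0.77 (SE 0.06, adjusted p = 5.32e-09) and Yipf4 by 0.57 (SE 0.05, adjusted p = 8.78e-09).

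With TMM scaling the receptors themselves showed much smaller differences than their partner. With library size alone Naip5 measured -0.45 and Naip2 -0.48 on the log2 scale, against 0.44 for Nlrc4. Naip5 measured 38.7, 37.5 and 38.2 CPM in control and 37.1, 35.9 and 37.9 CPM in LPS libraries, which overlap. Its log2 fold change was -0.05 (95% confidence interval -0.14 to 0.04, adjusted p = 0.36). Naip2 measured 102.0, 96.3 and 100.5 CPM in control and 93.6, 92.5 and 97.1 CPM in LPS libraries, overlapping at the edges. Its log2 fold change was -0.08 (95% confidence interval -0.15 to -0.0015, adjusted p = 0.0664), and it passed once a block for the replicate number was added (adjusted p = 0.0262) and without control replicate 2 (0.0292) or LPS replicate 3 (0.0351). These intervals, which take the TMM scaling as given, hold no rise or fall near the size seen in Nlrc4. The genes lie head to tail on chromosome 13, Naip2 (ENSMUSG00000078945) at chr13:100144063-100202092 and Naip5 (ENSMUSG00000071203) 9646 bp further at chr13:100211739-100246323, and they resemble their relatives in sequence. Of all stretches of read length in Naip5 transcripts, 15.9% also occur in transcripts of other genes, Naip3 and Naip6 most often, and 4.25% of those in Naip2 do so, with Naip1 and Naip3. How reads that map to several places were counted was not stated, so these values are uncertain to that extent.

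Nlrp1b, described as a sensor of proteolytic cleavage by pathogen enzymes, was lower after LPS. It stood at 72.5, 64.7 and 66.9 CPM in control and at 57.0, 55.6 and 57.6 CPM in LPS libraries. The groups did not overlap, and control replicate 1 was the highest. The log2 fold change was -0.26 (SE 0.04, adjusted p = 3.54e-05), 1.20-fold lower. The same-numbered pairs gave -0.35, -0.22 and -0.22. Nlrp1b (ENSMUSG00000070390) lies at chr11:71153102-71230733 on the minus strand, 8397 bp from its paralog Nlrp1a, with which it shares 0.0318% of its stretches of read length.

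Aim2, which binds cytosolic double-stranded DNA, differed by less. It stood at 45.0, 42.8 and 44.7 CPM in control and at 41.0, 39.7 and 41.4 CPM in LPS libraries. The ranges did not overlap but lay close to each other. The log2 fold change was -0.12 (SE 0.04, adjusted p = 0.0191), and this call was lost with DESeq2's test (adjusted p = 0.0965) and without control replicate 1 (0.0619), control replicate 3 (0.0561) or LPS replicate 2 (0.0665). Aim2 (ENSMUSG00000037860) spans chr1:173350879-173466040 on the plus strand. Ifi206, 2444 bp beyond it and of the same family of DNA-binding proteins, fell by 0.68 on the log2 scale (SE 0.05, adjusted p = 7.77e-10).

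The adaptor Pycard moved opposite to Nlrp3. It stood at 80.0, 82.3 and 76.0 CPM in control and at 58.7, 62.7 and 59.6 CPM in LPS libraries. Every LPS library lay below every control library. The log2 fold change was -0.40 (SE 0.04, adjusted p = 1.03e-07), 1.32-fold lower, and at percentile 25.9 of all tested genes. The same-numbered pairs gave -0.45, -0.39 and -0.35. Pycard (ENSMUSG00000030793) is a short gene at chr7:127989708-127993867 on the minus strand, and 485 of its 3800 exonic bases overlap Gm45205 on the opposite strand, where 10.3% of its stretches of read length recur. The control libraries assigned 7, 15 and 13 counts to Gm45205 and the LPS libraries 15, 12 and 9, few beside 1969 to 3808 for Pycard, although the strand setting of the counting was not stated.

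The caspases are neighbours on chromosome 9 and behaved differently. Casp1, the protease of the canonical inflammasomes, stood at 77.7, 73.2 and 77.9 CPM in control and at 77.7, 73.6 and 80.0 CPM in LPS libraries. The groups overlapped. Its log2 fold change was 0.02 (95% confidence interval -0.07 to 0.10, adjusted p = 0.742), and its sign changed to -0.13 with upper quartile scaling and to -0.39 with library size alone. Casp4, the gene of the mouse caspase that binds LPS directly in the cytosol and drives the non-canonical pathway, stood at 26.3, 25.7 and 23.4 CPM in control and at 110.2, 104.6 and 115.6 CPM in LPS libraries. Its groups were far apart, and control replicate 3 was the lowest library and LPS replicate 3 the highest. The log2 fold change was 2.13 (SE 0.05, 95% confidence interval 2.03 to 2.23, adjusted p = 3.08e-17). The same-numbered pairs gave 2.07, 2.02 and 2.30. Casp1 (ENSMUSG00000025888, chr9:5298517-5307265) and Casp4 (ENSMUSG00000033538, chr9:5308828-5336783) lie on the plus strand 1562 bp apart. Casp12, 8646 bp beyond Casp4 on that strand, was at a low level, 0.812 ± 0.115 CPM in control and 0.619 ± 0.252 CPM in LPS libraries (SD, n = 3), and did not pass (log2 fold change -0.39, adjusted p = 0.235).

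Gsdmd, the gene of the pore-forming substrate, stood at 105.1, 102.1 and 100.9 CPM in control and at 97.8, 96.7 and 92.5 CPM in LPS libraries. The ranges did not overlap. The log2 fold change was -0.10 (SE 0.04, adjusted p = 0.0169), 1.07-fold lower, and the call was lost with DESeq2's test (adjusted p = 0.0694) and without control replicate 1 (0.0619) or LPS replicate 3 (0.0757). Gsdmd (ENSMUSG00000022575) lies at chr15:75862327-75867408 on the plus strand.

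The scaling between libraries moved every value and turned the sign of Casp1. With library size alone in place of TMM factors, the median log2 fold change of all tested genes moved from -0.01 to -0.42, and 7 of the 10 genes, all but Nlrp3, Casp4 and Nlrc4, had a lower level at an adjusted p under 0.05. Under that scaling 80.9% of all tested genes had an adjusted p under 0.05 in either direction. Upper quartile scaling moved that median to -0.16 and gave the same number of lower genes, with 69.9% of all tested genes under that threshold in either direction. The share of all tested genes that were lower was not counted on its own under these scalings. These counts are therefore no result about the set. Over 15 alternative settings, Nlrp3 ran from 4.64 to 5.06, Casp4 from 1.73 to 2.17, Nlrc4 from 0.44 to 0.87, Nlrp1b from -0.67 to -0.22 and Pycard from -0.80 to -0.37, and all 5 kept an adjusted p under 0.05 in each. Aim2 kept it in 11, Gsdmd in 12, Naip2 reached it in 8 and Naip5 in 2, and each of these 4 kept its negative sign.

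**Figure D2:**
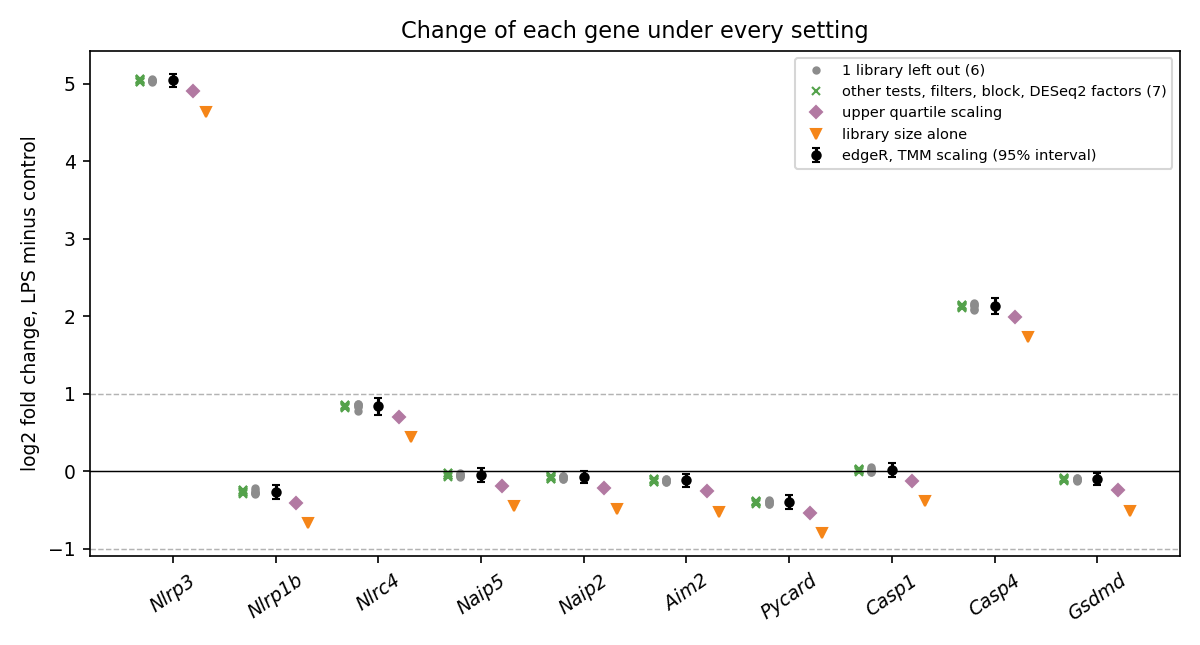
Log2 fold change (LPS minus control) of each gene with edgeR and TMM scaling (black, 95% interval) and under 15 alternative settings, with dashed lines at 1 and -1. Nlrp3 (4.64 to 5.06) and Casp4 (1.73 to 2.17) stayed above 1 under every setting, and the orange triangles of library size alone lie lowest for every gene.

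A ratio of 2 genes within a library does not depend on that scaling, and 4 pairs were compared. Nlrp3 to Pycard, sensor to adaptor, had count ratios of 0.578, 0.559 and 0.619 in control and 25.8, 25.2 and 25.1 in LPS libraries, a 43.4-fold difference. Casp4 to Casp1 had ratios of 0.338, 0.351 and 0.301 against 1.42, 1.42 and 1.44, so the order of the caspases in counts was exchanged (4.33-fold). Nlrc4 to Naip5 had ratios of 0.659, 0.600 and 0.673 against 1.168, 1.225 and 1.180 (1.85-fold). In these 3 pairs the groups did not overlap, and each gave p = 0.1 by an exact two-sided permutation test, the smallest p that 3 libraries against 3 allow (0.133 after Benjamini-Hochberg adjustment over the 4 pairs). Naip2 to Naip5 had ratios of 2.64, 2.56 and 2.63 against 2.52, 2.58 and 2.56, which overlap (exact p = 0.2, adjusted 0.2).

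To compare levels between genes, CPM was divided by the length of the union of each gene's exons in kb. In control BMDMs Casp1 and Gsdmd ranked highest, Casp1 at 51.0 ± 1.77 and Gsdmd at 43.2 ± 0.926 CPM per kb (SD, n = 3). Pycard (20.9 ± 0.828) and Naip2 (20.6 ± 0.617) followed and overlapped, then came Aim2 (12.6 ± 0.340), Nlrp3 (11.4 ± 0.140) and Nlrp1b (10.8 ± 0.633), the last 2 overlapping. Naip5 (7.33 ± 0.111), Casp4 (6.78 ± 0.412) and Nlrc4 (5.11 ± 0.371) were lowest. After LPS, Nlrp3 ranked first at 377 ± 10.7 CPM per kb and made up 66.1% of the summed level of the 10 genes, compared with 6.03% in control. Casp1 (51.5 ± 2.17), Gsdmd (40.2 ± 1.18) and Casp4 (29.7 ± 1.48) came next without overlap, and Naip5 (7.10 ± 0.198) was lowest. Nlrc4 (9.16 ± 0.154) and Nlrp1b (8.997 ± 0.156) overlapped after LPS.

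The length used matters for Casp4, whose union of exons over 7 transcripts is 3710 bases against 1435 for its shortest CCDS transcript. With that length Casp4 stood at 17.5 CPM per kb in control and at 76.7 after LPS, where it ranked 2 of 10 in place of 4. Gsdmd then ranked above Casp1 in both groups, at 57.3 against 51.0 in control. The shorter length also raised Nlrp1b in control from 10.8 to 19.3 CPM per kb and Aim2 from 12.6 to 21.2, which put Aim2 at rank 3 in place of 5, Pycard at rank 5 in place of 3 and Nlrp3 at rank 8 in place of 6. Nlrp3 ranked first after LPS with either length.

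**Figure D3:**
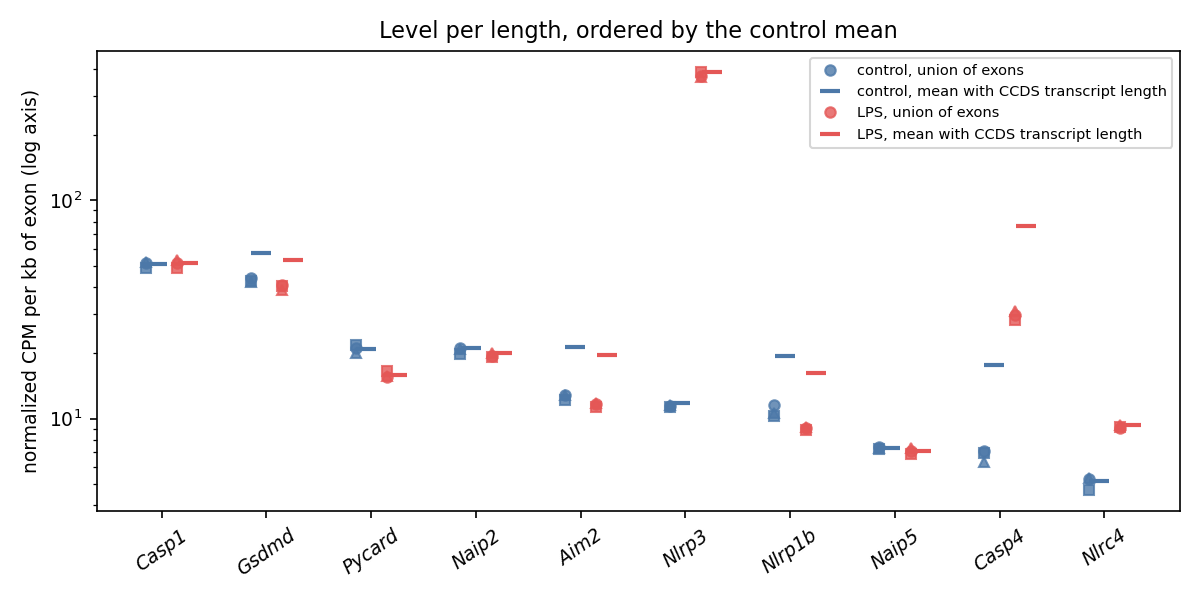
Normalized CPM per kb of exon (log axis) of each gene in control (blue) and LPS (red) libraries, ordered by the control mean, with points for libraries under the union-of-exons length and short lines for the group mean under the shortest CCDS transcript length. Nlrp3 moved from rank 6 in control (rank 8 with the CCDS length) to rank 1 after LPS (11.4 to 377), and the short lines stand well above the points for Casp4, Nlrp1b and Aim2.

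The other genes of the pathway were taken from lists and counted in the same fit. Beside the counts below, 10.5% of all tested genes rose and 10.4% fell past the criteria. By adjusted p alone, 32.9% of all tested genes were higher and 34.9% lower. No list was tested as a set, so its counts are a description. Of 11 other sensors, 7 could be tested and 1 rose past the criteria, Mefv, the gene of the sensor pyrin, by 2.68 on the log2 scale (SE 0.06, adjusted p = 1.62e-17), from 11.6 ± 1.02 to 74.4 ± 3.85 CPM. By adjusted p alone 2 were higher and 2 lower. The NAIP paralog Naip6 did not pass (0.02, adjusted p = 0.678, with a sign that turned with the scaling), and Naip1 was higher by 0.74 (SE 0.24, adjusted p = 0.0125) at a low level, 0.786 ± 0.231 against 1.31 ± 0.335 CPM. Nlrp1a (-0.19, adjusted p = 0.0219) and the pseudogene Nlrp1c-ps (-0.30, adjusted p = 1.22e-05) were lower, as was Nlrp1b. The call of Nlrp1a was lost with DESeq2's test (adjusted p = 0.0837) and without control replicate 1 (0.0688) or LPS replicate 2 (0.114). The call of Naip1 was lost with library size alone (adjusted p = 0.213) and without control replicate 1 (0.0599) or LPS replicate 1 (0.0916). Nlrp6, Nlrp2 and Nlrp9b had no counts in any library.

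Of 15 genes that license or trigger assembly, 1 rose and 2 fell past the criteria, and by adjusted p alone 5 were higher and 6 lower. Gbp5, a guanylate-binding protein of the family that coats bacteria and exposes their LPS, rose from 13.2 ± 0.782 to 256 ± 2.14 CPM (log2 fold change 4.27, SE 0.04, adjusted p = 1.93e-22). Its relatives Gbp3 (0.91) and Gbp2 (0.60) were higher by less (adjusted p = 7.99e-13 and 2.15e-10). Txnip, an inhibitor of thioredoxin that has been described as an Nlrp3 ligand, fell from 1099.7 ± 17.7 to 33.1 ± 0.600 CPM (log2 fold change -5.05, SE 0.04, adjusted p = 7.26e-24). Gm12250, an immunity-related GTPase, fell by 1.18 (SE 0.06, adjusted p = 6.67e-12). Nek7, the kinase that bridges Nlrp3 subunits, was higher by 0.20 (adjusted p = 6.93e-05), a difference that turned to -0.20 with library size alone and did not pass with upper quartile scaling (0.06, adjusted p = 0.147). P2rx7, the ATP-gated channel that lets potassium out, was lower (-0.41, adjusted p = 5.22e-09), as was Pstpip1, a partner of pyrin (-0.44, adjusted p = 6.22e-08).

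Among 13 genes that restrain inflammasomes, 11 could be tested and 1 passed the criteria, a fall, and by adjusted p alone 1 was higher and 3 lower. The gene that fell was Ifi213, which encodes a pyrin-domain protein of the family of Aim2, from 65.8 ± 2.55 to 28.8 ± 1.90 CPM (log2 fold change -1.19, SE 0.05, adjusted p = 2.66e-13). Nlrx1 (-0.46, adjusted p = 8.96e-05) and Nlrc3 (-0.32, adjusted p = 0.0043), NOD-like receptors described as inhibitory, were the other 2.

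Of 13 substrates and outputs, 12 could be tested and 3 passed the criteria, each a rise, and by adjusted p alone 8 were higher and 2 lower. Il1b, the main cytokine substrate of caspase-1, rose from 2.18 ± 0.0632 to 7615 ± 48.8 CPM (log2 fold change 11.77, SE 0.05, adjusted p = 3.06e-27). Il1a rose by 10.94 (SE 0.08, adjusted p = 6.28e-24) and Il1rn, the receptor antagonist, by 5.13 (SE 0.04, adjusted p = 6.55e-24). Il18, the other cytokine substrate, was higher by only 0.75, from 5.53 ± 0.690 to 9.33 ± 0.0683 CPM (adjusted p = 1.34e-06). Ninj1, which ruptures the membrane after pore formation, was higher by 0.69 (adjusted p = 3.79e-12), and Gsdme, a second gasdermin, was lower (-0.45, adjusted p = 0.000114).

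Of 7 transcription factors described at promoters of inflammasome genes, 3 passed the criteria, each a rise. Nfkb1 rose from 129.6 ± 3.01 to 824 ± 28.2 CPM (2.67, SE 0.04, adjusted p = 2.06e-20), Irf1 from 135 ± 5.54 to 588 ± 16.95 CPM (2.12, SE 0.04, adjusted p = 8.83e-19) and Rela by 1.06 (SE 0.04, adjusted p = 3.1e-13). The value of Rela lay close to the fold criterion. Of all pathway genes outside the set, 8 rose past the criteria with TMM, and 7 with library size alone or upper quartile scaling. Over all tested genes these counts were 1653, 1213 and 1467. Irf8, described as a regulator of the NAIP genes, was lower (-0.80, adjusted p = 6.66e-13), and Irf2, described as a regulator of Gsdmd, measured -0.06 (adjusted p = 0.191).

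**Figure D4:**
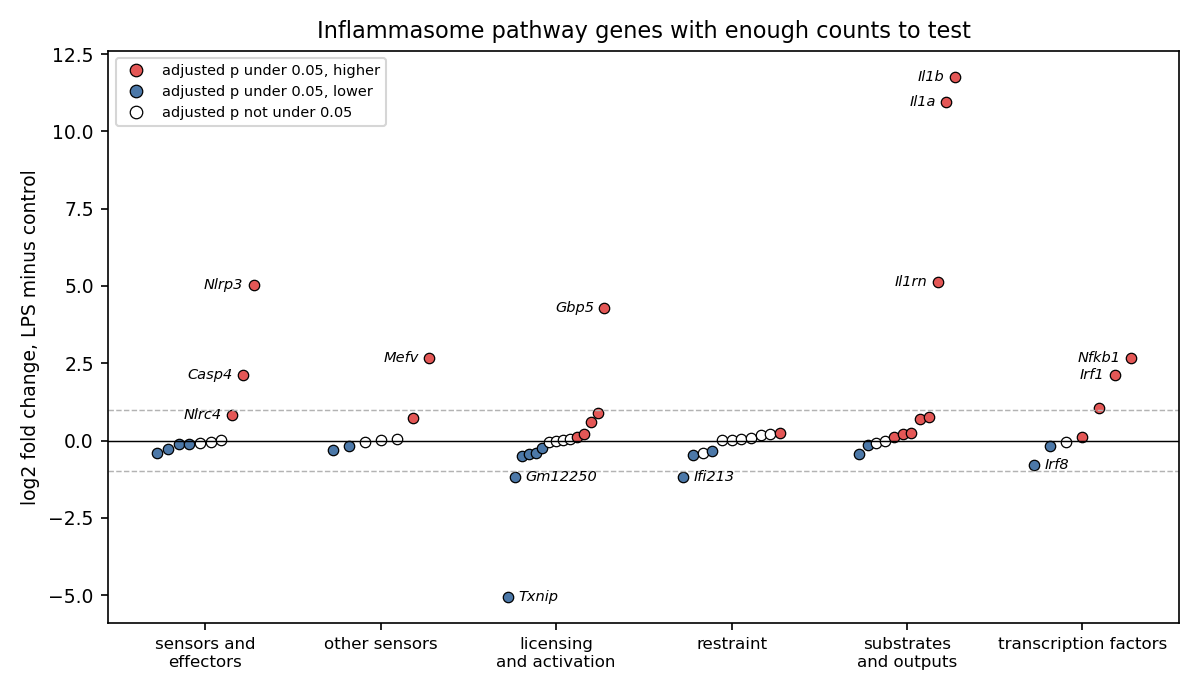
Log2 fold change (LPS minus control) of every tested gene in the set of 10 sensors and effectors and in 5 lists of other pathway genes, each circle a gene, filled where the adjusted p was under 0.05 (red higher, blue lower), with dashed lines at 1 and -1. Il1b (11.77) and Il1a (10.94) lie highest, Nlrp3 (5.04) stands beside Il1rn (5.13), and Txnip (-5.05) lies lowest.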

How the data were processed

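Total RNA was sequenced in 6 libraries of mouse BMDMs, 3 per group. Per the labels and the study's methods, the authors prepared libraries with a stranded total RNA kit, checked reads with FastQC 0.11.9, aligned paired reads to GRCm38 with HISAT2 2.1.0, used SAMtools 1.17 and counted with featureCounts 2.0.0. They deposited raw counts per gene, without normalization. The annotation release, strand setting and treatment of reads with several hits were not given in the sources used here.

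Versioned Ensembl identifiers were matched to GENCODE M21 ignoring the version (55154 of 55335), and 2 list names were found through RefSeq synonyms. Libraries of 37787611 to 41516330 counts put 3 counts, the floor of detection, at 0.0630 to 0.0919 CPM, for counting error only. Counts were filtered with filterByExpr, scaled by TMM and tested over 15687 genes in edgeR 4.0.16 (R 4.3.3) with the quasi-likelihood test. Unless another test is named, every adjusted p of a gene comes from that test, by the Benjamini-Hochberg method across all 15687 genes. A gene passed the criteria where that p was under 0.05 and the fold change beyond 1 on the log2 scale in either direction, as in the study, with rise and fall used of these or, for a single gene, of an adjusted p under 0.05. Standard errors and 95% intervals were derived from the quasi-likelihood statistic. Ratios of 2 genes used counts plus 0.5 and an exact permutation test. CPM per kb used exon lengths from GENCODE M21, and promoters came from RefSeq on GRCm38.p6.

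The labels call the replicate numbers batches, which pairs the libraries. After subtraction of the group means, libraries with the same number correlated at -0.0139, 0.0822 and 0.0387 across genes. The model had no block, as the study's methods name none, and a block was an alternative. Other alternatives were DESeq2 size factors, library size, upper quartile scaling, other filters, DESeq2 1.42.0, limma 3.58.1 voom, removal of the 10 most abundant genes, other gene lengths and pseudocounts, and leaving out each library. The functions were tested on simulated data. The 10 genes, the pathway and marker lists and the rule for named genes (all of these, their nearest protein-coding neighbours and Tnf) were chosen with earlier results of these data known. Not every gene under this rule is reported here. The shortest CCDS length, Gm45205 and the Ifi200 genes were added after their values were seen.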

Additional observations from a re-analysis of the deposited data

How the results depend on the processing

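With library size alone, 1213 genes rose and 2964 fell past the criteria (29.0% of calls were rises, 50.4% with TMM, where 1653 rose and 1624 fell); upper quartile scaling gave 42.6% rises, and a filter of 10 counts in every library left 1027 falls. The number of the 10 inflammasome genes lower at an adjusted p under 0.05 was 4 with TMM, 7 with either of those scalings, 2 with DESeq2's test, and between 2 and 5 when a library was left out, the 2 being without control replicate 1. The share of all tested genes under that threshold in either direction was 67.7% with TMM. Under those other settings it ran from 62.1% (DESeq2's test) to 80.9% (library size alone), and the lower genes were not counted separately. Of the 52 tested pathway genes outside the set, 20 were higher and 15 lower at an adjusted p under 0.05 with TMM. Library size alone gave 12 higher and 37 lower, and upper quartile scaling gave 14 higher and 23 lower. Library size alone turned the sign of 17, of which 15 had an adjusted p under 0.05 in the new direction. Upper quartile scaling turned the sign of 11, of which 3 had such a p in the new direction. How many of all tested genes turned sign was not counted, so these counts are no result about the pathway. Casp1 turned to -0.39 with library size alone, -0.13 with upper quartile scaling, -0.00874 with no filter beyond 1 count and -0.000963 with 10 counts in every library, and ran from -0.016 to 0.049 when a library was left out. Naip6 turned to -0.38, -0.12 and -0.00156 under the first 3 of these and ran from -0.022 to 0.045 when a library was left out. Nek7 (-0.20) and Mndal (-0.15) turned with library size alone. The cause was not tested beyond the shift of the median of all genes. With the replicate number as a block, Naip2 passed (adjusted p = 0.0262), 3 of the 10 genes were higher and 5 lower, 2 of the 52 pathway genes gained an adjusted p under 0.05, and 1652 genes rose and 1624 fell past the criteria. The block gave 69.6% of all tested genes an adjusted p under 0.05 in either direction. With 3 libraries per group from 1 time point and 1 strain, and no source tying these libraries to separate cultures, the small differences of Aim2, Gsdmd, Naip2, Naip5 and Casp1 rest on the spread between these libraries.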

Other observations

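Aim2 opens a cluster of related DNA-binding genes, the Ifi200 genes, along chromosome 1, and the cluster did not move as 1 block. These genes were looked at after the value of Ifi206 had been seen, so their counts are a description. Of 12 genes that follow Aim2, 11 could be tested, 4 rose and 1 fell past the criteria, by adjusted p alone 6 were higher and 4 lower, and the median log2 fold change was 0.25 against -0.01 for all tested genes. Of all tested genes, 10.5% rose and 10.4% fell past the criteria, and by adjusted p alone 32.9% were higher and 34.9% lower. The genes nearest to Aim2 were lower: Ifi206 (-0.68, adjusted p = 7.77e-10), Ifi214 (-0.51, adjusted p = 0.0146, lost with DESeq2's test at 0.0798 and without LPS replicate 2 at 0.0528), Ifi213 (-1.19, adjusted p = 2.66e-13) and Ifi209 (-0.41, adjusted p = 5.85e-08). Those at the far end were higher: Ifi211 (1.30, adjusted p = 6.75e-16), Ifi203 (1.64, adjusted p = 9.45e-16) and Ifi205, which went from 5.30 ± 0.769 to 53.2 ± 2.32 CPM (3.32, adjusted p = 1.64e-17). Between them lay Ifi207 (0.74, adjusted p = 3.16e-12), Ifi204 (0.06, adjusted p = 0.213) and Mndal (0.25, adjusted p = 2.94e-05, but -0.15 with library size alone). Ifi202b had 0 counts in each control library, where 3 counts would be 0.0630 to 0.0664 CPM, and 56, 77 and 70 counts in the LPS libraries. Members of this family share sequence, and how reads with several hits were counted was not stated.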
